A study of Homo sapiens with 6 samples.

Results

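The activin and TGF-beta pathway was examined through 10 of its genes in NCI-H1975 cells that had become resistant to WZ4002: the ligand genes INHBA, INHBB, TGFB1 and TGFB2, the ligand-binding inhibitors FST and FSTL3, the receptors ACVR1, ACVR2A and TGFBR2, and the feedback inhibitor PMEPA1. All probe sets annotated to these genes were taken, which gave 17 of 22215 probe sets and 10 of 11963 genes, with 1 probe set for 5 genes and 2 or more for the other 5. The genes were selected on pathway membership with their log2 difference between the groups in view, so that difference is given below as a description, without a p-value. WZR6 samples (3 arrays) came from a single clone, number 6, isolated from NCI-H1975 cells grown in increasing amounts of WZ4002, an inhibitor of mutant EGFR. Parental samples (3 arrays) came from NCI-H1975 itself, a human line of non-small cell lung cancer that the drug inhibits. Both groups grew exponentially in RPMI medium with serum before harvest, and the sources used here do not say whether WZR6 was kept in drug until then. The series asks how ERK signaling makes cells resistant to EGFR kinase inhibitors.

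Activins are dimers of inhibin beta subunits, and TGF-betas are related dimers that are secreted in a latent form. Both bind a type II receptor kinase that activates a type I receptor, which phosphorylates SMAD2 and SMAD3; these enter the nucleus with SMAD4 and switch genes on or off. In epithelial cancers the pathway is known for slowing proliferation and for driving epithelial-mesenchymal transition.

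The 6 arrays had similar intensity distributions, with medians slightly lower in WZR6 (163 to 165) than in parental cells (167 to 170). Log2 intensities correlated with r of at least 0.9978 across probe sets within a group. The lung epithelial markers taken as a check on the label all had a mean above 5.27, the lower quartile of the log2 values of all arrays, in at least 1 group, and 7 of 9 were called lower in WZR6, among them EPCAM, with a mean log2 intensity of 6.17 in WZR6 and 12.43 in parental cells. Their summed intensity lay between 26687 and 27381 in WZR6 and between 47640 and 48194 in parental cells. For fibroblast markers the sums were 1305 to 1320 in WZR6 and 2237 to 2422 in parental cells, with 1 of 9 called higher and 2 lower. The 2 called lower were COL1A1 and COL1A2, the brightest of the 9 in parental cells. The other COL1A1 probe sets ranged from -1.27 to 0.08, and 4 of the 9 markers lay below the lower quartile in both groups. For endothelial markers the sums were 288 to 311 in WZR6 and 266 to 295 in parental cells. Of the 5, 1 was called higher and 2 lay below the lower quartile in both groups. For the 4 measured leukocyte markers the sums were 272 to 294 in WZR6 and 493 to 561 in parental cells. Of the 4, 2 were called lower, and PTPRC, which defines leukocytes, lay below the lower quartile in both groups. The part of these markers in the results below was not tested. In RNA from whole cultures, fewer cells that express a gene and less RNA per cell cannot be told apart.

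INHBA, which encodes the subunit of activin A, had the largest difference of the 10 genes. On its brighter probe set (210511_s_at) the log2 intensity was 10.97, 10.82 and 10.83 in WZR6, against 6.53, 6.62 and 6.47 in parental cells. Every WZR6 array thus lay above every parental array, by 4.33 ± 0.07 on the log2 scale (SE, n = 3 per group) or 20.2-fold (95% interval 18.1 to 22.5), and 4 of 11963 genes had a larger increase. The second probe set (204926_at) gave 6.73, 6.60 and 6.57 in WZR6, against 4.69, 4.87 and 4.83 in parental cells. It showed the same direction with a smaller difference, 1.83 ± 0.07 or 3.57-fold, on parental values that lay below the lower quartile of the array. The size of the increase therefore depends on the probe set, while its direction does not.

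INHBB, which encodes the subunit of activin B, did not separate the groups. Its log2 intensity was 6.17, 6.37 and 6.00 in WZR6, against 6.14, 6.20 and 6.29 in parental cells, and the groups overlapped. The difference was -0.03 with an interval from -0.26 to 0.20.

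TGFB2 was the second ligand gene with higher signal in WZR6. Its brightest probe set (209909_s_at) gave 10.43, 10.46 and 10.62 in WZR6, against 9.49, 9.48 and 9.68 in parental cells, a difference of 0.95 ± 0.08 or 1.94-fold (1.70 to 2.21). A second bright probe set (220407_s_at) gave 9.52, 9.43 and 9.44 in WZR6, against 8.46, 8.59 and 8.47 in parental cells, a difference of 0.96 ± 0.06. The dim probe set 209908_s_at differed by 0.98 ± 0.16, with values that scattered from 5.36 to 6.05 in WZR6 and from 4.66 to 4.82 in parental cells. Its parental values lay below the lower quartile, and with a floor there the difference was 0.45 and no longer called by limma. The remaining one, 220406_at, differed by 0.12 ± 0.12 and its groups overlapped. It is the only TGFB2 probe set of a type other than _s_at, the type that can detect several transcripts.

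TGFB1, the ligand after which the TGF-beta family is named, was lower in WZR6 on 1 of its 2 probe sets. The brighter one (203085_s_at) gave 6.32, 6.35 and 6.53 in WZR6, against 6.69, 6.67 and 6.88 in parental cells. The WZR6 arrays lay below all parental arrays, by 0.35 ± 0.08 (SE) on the log2 scale, a 1.28-fold difference. The other probe set (203084_at) gave 5.70, 6.33 and 5.99 in WZR6, against 6.01, 6.04 and 6.01 in parental cells, and showed a difference of -0.02 ± 0.15.

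**Figure D1:**
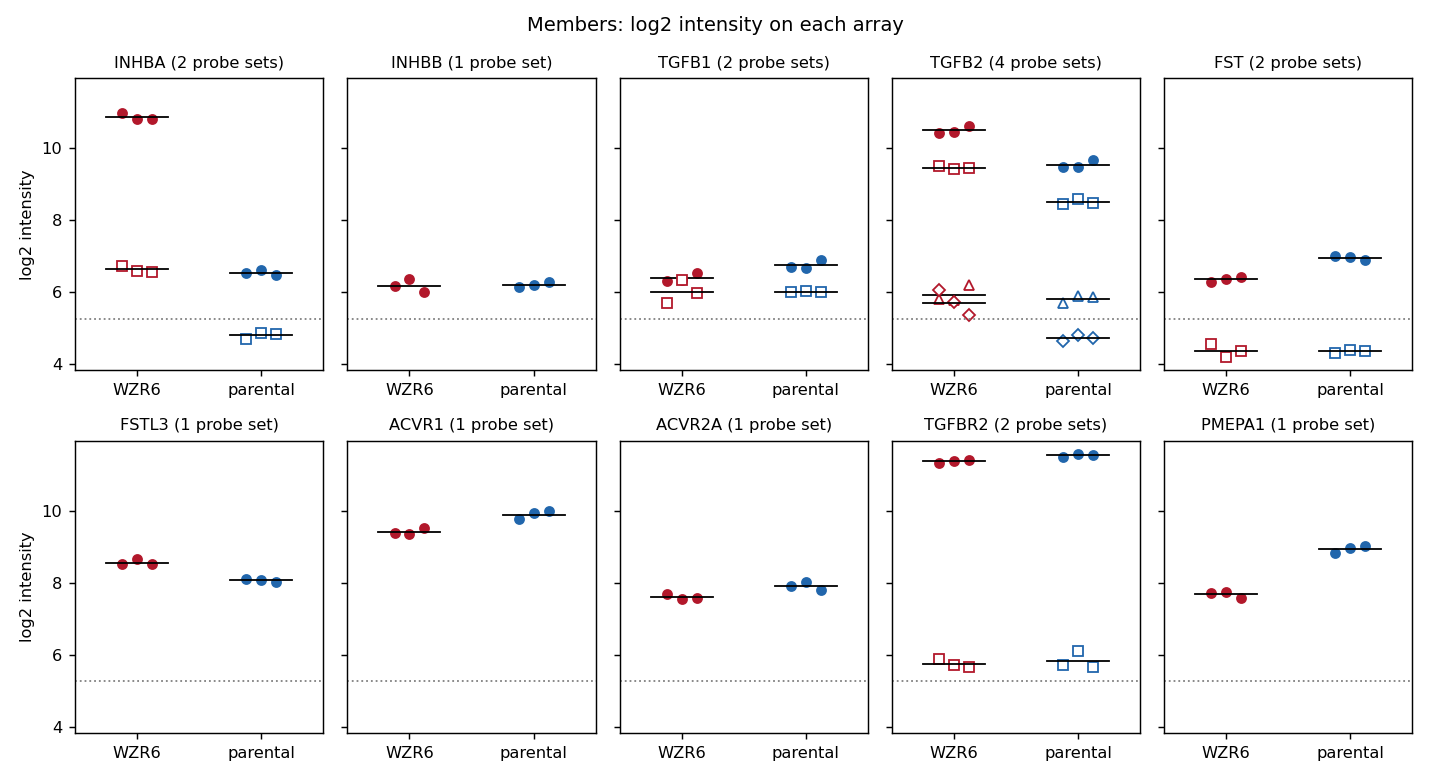
Log2 intensity of every probe set of the 10 genes on each array, WZR6 (red, left) and parental (blue, right); points are arrays, horizontal bars are group means, filled points are the brightest probe set of a gene and open symbols its others, and the dotted line is the lower quartile (5.27). INHBA separates the groups by 4.33 on its brightest probe set, TGFB2 by 0.95 and PMEPA1 by -1.26, while the INHBB groups overlap.

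The 2 soluble inhibitors differed in opposite directions. Follistatin, encoded by FST, wraps around activin and keeps it from its receptors. On 204948_s_at it gave 6.29, 6.36 and 6.43 in WZR6, against 6.996, 6.98 and 6.90 in parental cells, so that all WZR6 arrays were lower, by 0.60 ± 0.06 (SE) on the log2 scale or 1.51-fold (1.38 to 1.66). The other FST probe set (207345_at) stayed under the lower quartile in both groups and differed by 0.02 ± 0.09. FSTL3, the related follistatin-like inhibitor, gave 8.54, 8.66 and 8.52 in WZR6, against 8.11, 8.09 and 8.02 in parental cells. It was higher on every WZR6 array, by 0.50 ± 0.06 or 1.41-fold (1.28 to 1.55). WZR6 thus had more INHBA and FSTL3 signal and less FST signal than parental cells.

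The 250 bases upstream of the RefSeq start sites of INHBA, TGFB2 and FST (GRCh38.p14) are shown because these are 2 ligand genes that were higher and an activin inhibitor that was lower in WZR6. Capitals mark matches on either strand to the SMAD-binding core CAGAC, the loose AP-1 pattern TGANTCA, in which N is any base, and the TATA box core TATAAA.
INHBA promoter, chr7:41703091-41703340, minus strand: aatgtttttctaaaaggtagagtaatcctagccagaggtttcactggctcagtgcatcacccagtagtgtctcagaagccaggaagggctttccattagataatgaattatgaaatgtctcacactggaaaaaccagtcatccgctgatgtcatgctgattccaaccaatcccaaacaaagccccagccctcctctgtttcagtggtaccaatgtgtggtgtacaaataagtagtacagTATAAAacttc
TGFB2 promoter, chr1:218345086-218345335, plus strand: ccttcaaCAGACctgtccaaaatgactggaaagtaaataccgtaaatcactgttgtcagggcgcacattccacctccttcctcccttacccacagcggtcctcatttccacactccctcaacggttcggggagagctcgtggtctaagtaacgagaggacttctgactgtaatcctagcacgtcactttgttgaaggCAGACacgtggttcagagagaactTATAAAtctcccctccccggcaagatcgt
FST promoter, chr5:53480379-53480628, plus strand: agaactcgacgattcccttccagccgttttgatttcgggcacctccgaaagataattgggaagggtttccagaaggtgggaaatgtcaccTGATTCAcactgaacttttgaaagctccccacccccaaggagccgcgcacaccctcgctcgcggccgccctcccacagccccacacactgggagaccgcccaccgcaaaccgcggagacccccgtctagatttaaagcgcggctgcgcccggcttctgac
The INHBA window holds a TATA match that begins 11 bases before the start site. The TGFB2 window holds CAGAC matches that begin 243 and 53 bases before the start and a TATA match 29 bases before it. The FST window holds 1 match to TGANTCA, 160 bases before the start, with T as its middle base. Among all 35116 promoter windows of that length, 38.0% held CAGAC, 6.57% held TGANTCA and 10.7% held TATAAA. All 10 genes matched the RefSeq table, with 16 windows between them. CAGAC was found in 2 of the 4 windows of PMEPA1, in 1 of the 3 of ACVR1 and in none of those of INHBB, TGFB1, FSTL3, ACVR2A and TGFBR2. TGANTCA was also found in 1 of the 3 windows of ACVR1, and TATAAA in the 1 window of FSTL3.

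All 3 receptors were lower in WZR6, by small amounts. ACVR1, a type I receptor that mainly carries BMP signals and can also bind activin, gave 9.38, 9.37 and 9.54 in WZR6, against 9.77, 9.95 and 9.996 in parental cells. The groups did not overlap and differed by -0.47 ± 0.08 (SE), a 1.39-fold difference. ACVR2A, a type II receptor for activin, gave 7.71, 7.55 and 7.58 in WZR6, against 7.91, 8.03 and 7.80 in parental cells, a difference of -0.31 ± 0.08 or 1.24-fold. In the fit over probe sets ACVR2A was no longer called without WZR6 replicate 2 (-0.27) or WZR6 replicate 3 (-0.29). TGFBR2, the type II receptor for TGF-beta, gave 11.35, 11.39 and 11.42 in WZR6, against 11.52, 11.58 and 11.55 in parental cells. These groups were also separate, but by only -0.16 ± 0.05, a 1.12-fold difference, and a second, dim probe set (207334_s_at) overlapped between the groups with a difference of -0.08 ± 0.12. In the fit over probe sets the TGFBR2 difference was no longer called by limma without any single array other than WZR6 replicate 3 (-0.17 to -0.14), with the replicate number as a block (-0.16) or with the arrays centred on their medians (-0.12). In the fit over genes it was not called without parental replicate 2, WZR6 replicate 1 or WZR6 replicate 2, with that centring, or as the mean of its probe sets (-0.12).

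PMEPA1, a membrane protein that TGF-beta induces and that binds SMAD2 and SMAD3 to limit their activation, was the most lowered of the 10 genes. Its log2 intensity was 7.72, 7.74 and 7.60 in WZR6, against 8.83, 8.97 and 9.04 in parental cells. All WZR6 arrays lay more than 1 log2 unit below the parental arrays, with a difference of -1.26 ± 0.07 or 2.40-fold (2.13 to 2.69). PMEPA1 and INHBA thus differed in opposite directions.

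**Figure D2:**
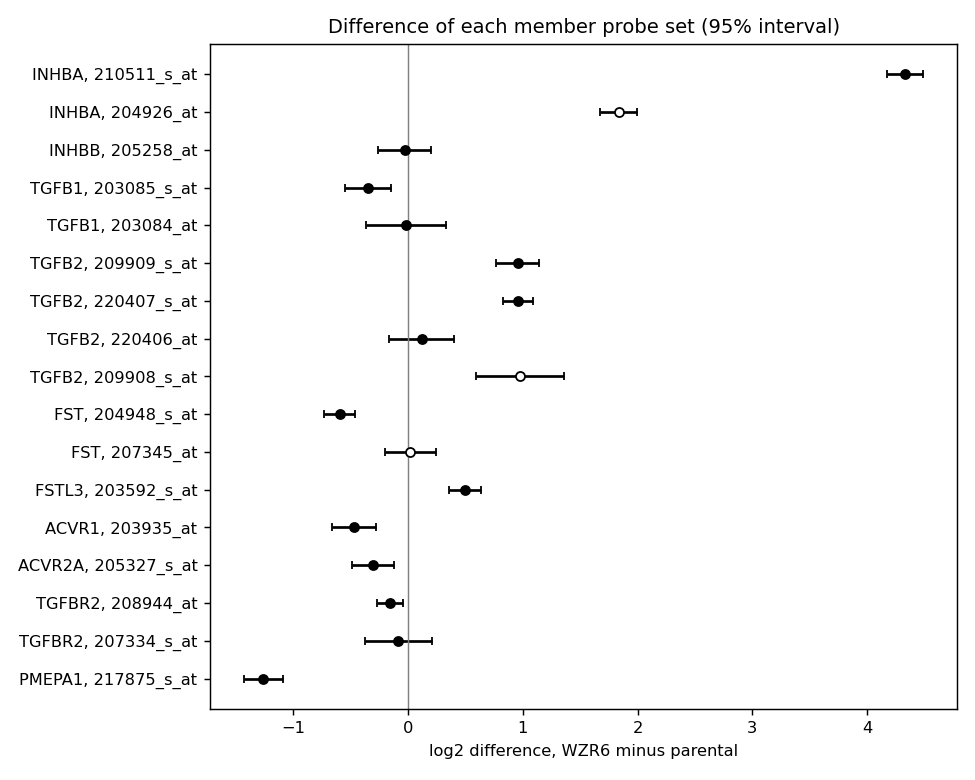
Log2 difference, WZR6 minus parental, of each of the 17 probe sets, with 95% intervals from limma; open points are probe sets with a group mean under the lower quartile (5.27). The INHBA probe sets lie at 4.33 and 1.83, 3 of the 4 TGFB2 probe sets lie between 0.95 and 0.98, and PMEPA1 lies at -1.26.

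Counted by the brightest probe set of each gene, limma called 3 members higher in WZR6 and 6 lower, and INHBB was not called. For all genes tested, calls came to 24.5% in the higher and 23.5% in the lower direction, 48.0% together, and the choice of members used this contrast, so nothing is read from the members' share. Among all genes 1.36% were called at least 2-fold higher and 3.42% at least 2-fold lower; of the members INHBA was the one past 2-fold upward and PMEPA1 the one past 2-fold downward. The groups did not overlap for 12 of the 17 member probe sets, 6 in each direction, against 51.1% of all probe sets. The median difference of the 10 members was -0.23, against 0.02 over all genes. Larger absolute differences than those of TGFB2 and PMEPA1 were seen in 5.31% and 3.12% of genes, and than those of ACVR2A and TGFBR2 in 32.5% and 54.9%.

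The 5 genes whose profile over the 6 arrays was most like that of INHBA, by Euclidean distance after each gene was centred on its own mean, were COL4A5, OLR1, MEOX1, GAS1 and BCHE, at distances between 0.93 and 1.37 log2 units. COL4A5, a basement membrane collagen chain, differed by 5.02 and OLR1, a receptor for oxidized LDL, by 5.12. With 2 groups of arrays, such likeness reflects mainly a similar step between the groups.

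For INHBA, TGFB2 and PMEPA1, none of the 20 nearest measured genes on the chromosome differed as far in the direction of the member. For INHBA, the 20 nearest measured genes, 10 on each side, had a median difference of -0.10 and none exceeded 0.50; 9 were called lower and 1 higher. For TGFB2 the neighbours had a median of -0.04 and lay between -1.80 and 0.56, with 3 called higher and 8 lower. Those of PMEPA1 had a median of 0.07 and a minimum of -0.13. FST stood at -0.60 beside a neighbour median of 0.01, but its neighbours reached down to -1.75, with 7 called lower and 1 higher. The neighbours of ACVR1 had a median of -0.18, with 10 of 20 called lower, beside its own -0.47, and those of INHBB a median of -0.23, beside its own -0.03. The difference of a member was over 2 times the median of its neighbours, in size, for 9 of the 10 genes, all but INHBB. Among probe sets above the median level this held for 4 of the 7 members measured there, and the neighbours of INHBA then had a median of -0.44. Nothing is read from these counts. A median of 20 genes lies near 0 for most members, and no such share was taken over all genes. The members were also chosen with this contrast in view.

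Outside the members, 73 of 81 listed genes of the pathway had a probe set of their own; 24 rose in WZR6, 22 fell and 27 were not called, with a median difference of 0.06; over all genes 24.5% were called higher and 23.5% lower. Of 8 other ligand genes measured, 1 rose, 2 fell and 5 were not called (median 0.03). INHBE, which encodes the inhibin beta E subunit, rose to 6.82 ± 0.30 (SD) in WZR6, against 5.05 ± 0.08 in parental cells, a difference of 1.76 ± 0.14 (SE, adjusted p = 8.31e-05 in limma) on a parental mean below the lower quartile. INHBC, the beta C subunit, fell by 0.28 (adjusted p = 0.0417) and GDF11, an activin-like ligand, fell by 0.17 (adjusted p = 0.0253). Neither call held with median centring. INHBC lost its call without any single array other than parental replicate 2 (adjusted p between 0.0561 and 0.123). GDF11 lost it without parental replicate 2 or 3 or WZR6 replicate 1 or 2 (adjusted p between 0.0565 and 0.0876), and differed by 0.10 with no _x_at or _s_at probe sets.

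Over all genes 24.5% were called higher and 23.5% lower. Of 11 genes for latency, processing and activation of the ligands, 3 rose, 3 fell and 5 were not called (median 0.02). The 3 that rose were THBS1 and, named after their values were seen, LTBP4 and PCSK6. With a floor at the lower quartile, or without parental replicate 1, neither THBS1 nor PCSK6 was called and 1 of the 11 remained higher. PCSK6 rose by 0.35 (adjusted p = 0.0456 in limma), and its call also ended with cyclic loess, as the mean of its probe sets and without any other single array except parental replicate 2 (adjusted p between 0.0518 and 0.295). PCSK5, a proprotein convertase, fell by 2.81 on the log2 scale, to 4.30 ± 0.04 (SD) in WZR6, against 7.12 ± 0.11 in parental cells, and its other probe sets differed by -1.24 and -0.78. That WZR6 mean lay below the lower quartile, and with a floor there the difference was -1.85. LTBP2 and LTBP3, of the latent TGF-beta binding protein family, fell by 1.24 and 0.77. THBS1, a matrix protein that can activate latent TGF-beta, rose by 0.42 ± 0.11 (SE, adjusted p = 0.0190 in limma). That call ended with a floor at the lower quartile (adjusted p = 0.0588) and without parental replicate 1 (adjusted p = 0.0592) or 2 (adjusted p = 0.0632).

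Of 8 receptors outside the members, 2 rose, 1 fell and 5 were not called (median 0.01), beside 24.5% of all genes called higher and 23.5% lower. ACVR1B, the main type I receptor for activin, fell to 8.94 ± 0.09 (SD) in WZR6, against 9.98 ± 0.08 in parental cells, a difference of -1.04 ± 0.06 (SE, adjusted p = 2.49e-05 in limma), and its other probe sets ranged from -1.01 to 0.08. TGFBR3, the co-receptor betaglycan, which presents TGF-beta 2 to its receptors, rose to 8.79 ± 0.05 (SD) in WZR6, against 7.63 ± 0.10 in parental cells, a difference of 1.16 ± 0.06 (SE). TGFBR1, the type I receptor for TGF-beta, rose by 0.39 ± 0.08.

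Of the SMADs and their adaptors 8 of 11 rose, 1 fell and 2 were not called, with a median difference of 0.54, beside 24.5% called higher, 23.5% called lower and a median of 0.02 over all genes. Without _x_at and _s_at probe sets, which left 8 of the 11 measured, 3 were called higher. TGIF2, a repressor of SMAD-driven transcription, rose by 0.98 ± 0.07 (SE) and the inhibitory SMAD6 by 0.74 ± 0.07. ZFYVE9, which anchors SMADs near the receptors, rose by 0.72 ± 0.09 and the repressor SKI by 0.59 ± 0.15. SKI was not called with the floor, as the mean of its probe sets or without WZR6 replicate 1 (adjusted p between 0.0527 and 0.0552 in limma), and SMAD6 was not called without _x_at and _s_at probe sets (difference 0.14, adjusted p = 0.198). SMAD2, named after its values were seen, rose by 0.58 on its brightest probe set, while its other probe sets differed by -0.10 and 0.34.

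Of 12 regulators at the receptor, 4 rose, 4 fell and 4 were not called (median 0.01), beside 24.5% of all genes called higher and 23.5% lower. BAMBI, a receptor without a kinase domain that blocks signaling, rose to 11.03 ± 0.01 (SD) in WZR6, against 9.88 ± 0.05 in parental cells, a difference of 1.15 ± 0.04 (SE, adjusted p = 3.26e-06 in limma). The ubiquitin ligases SMURF2 and SMURF1, which mark receptors and SMADs for degradation, fell by 1.46 and 1.02. The other SMURF1 probe sets differed by -0.63 and -0.25. FSTL1, a secreted glycoprotein with a follistatin-like domain, rose by 0.54 ± 0.04.

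Of 23 measured targets of the pathway, 11 fell, 6 rose and 6 were not called (median -0.11). For all genes tested, 23.5% were called lower and 24.5% higher, with a median of 0.02. TAGLN, an actin-binding protein, rose by 1.51 ± 0.05 (SE). ANGPTL4, a secreted regulator of lipid metabolism, fell by 1.96 and HMGA2, a chromatin protein, by 1.25. COL1A1, a fibrillar collagen chain, fell by 3.00 on its brightest probe set but its other probe sets ranged from -1.27 to 0.08, so its value is uncertain.

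**Figure D3:**
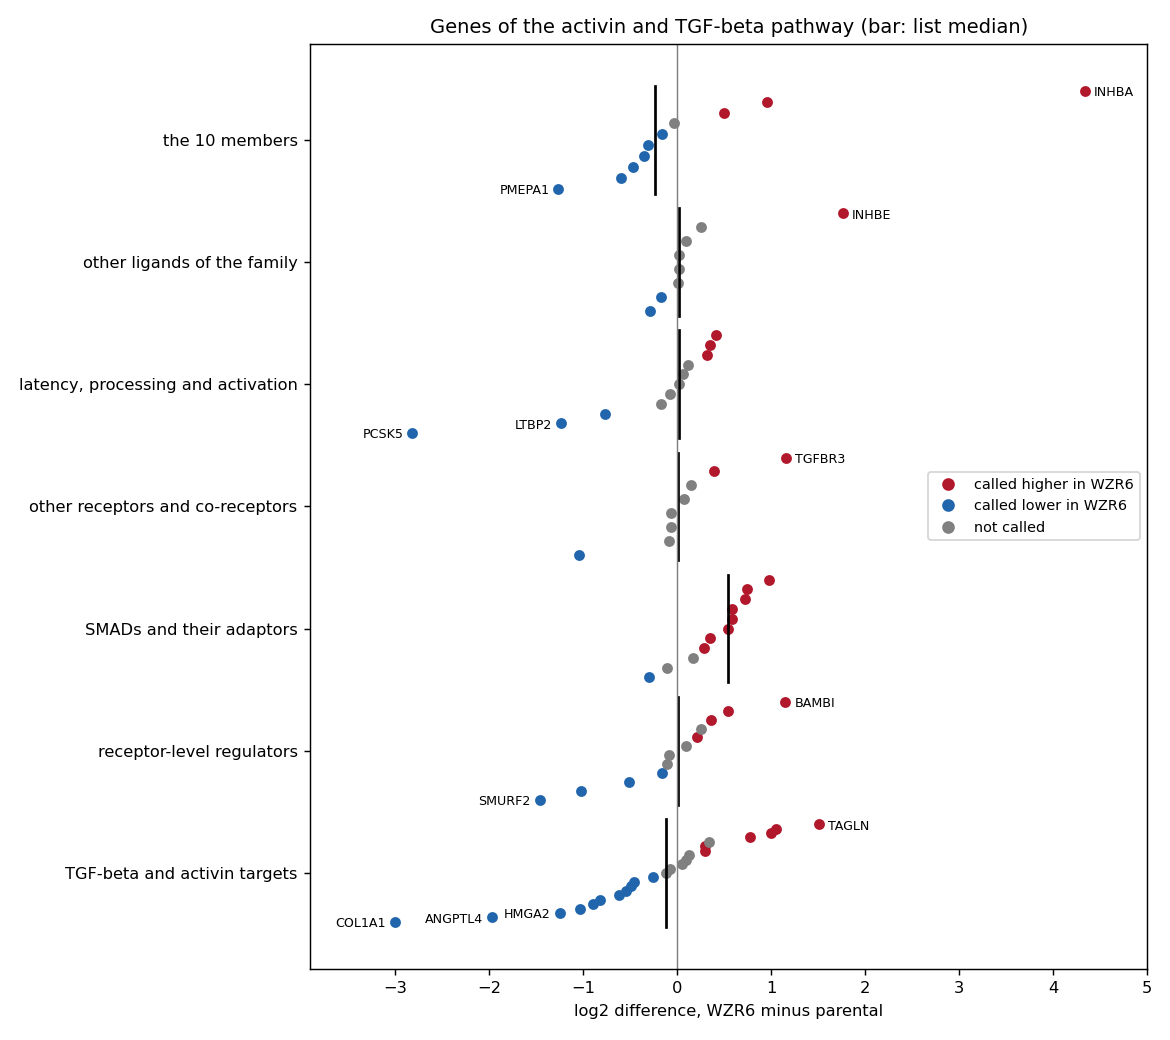
Log2 difference, WZR6 minus parental, of each measured gene of the pathway lists, with 1 point per gene, coloured by its call in limma, and a vertical bar at the list median; genes beyond 1.1 log2 units are named. The SMADs and their adaptors have a median of 0.54, the members -0.23 and the targets -0.11, and the other lists lie between 0.01 and 0.03.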

How the data were processed

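RNA from 3 WZR6 and 3 parental samples was labelled with biotin and hybridised to 6 oligonucleotide arrays. The authors deposited 1 linear intensity per probe set and array, and the submitters' processing notes name RMA, which subtracts background, quantile normalizes and summarises probes; the sources used here give no version, settings or detection calls. These were taken to log2 as they stood, without a pseudocount or further normalization. Of 22277 probe sets 62 controls were left out. Names came from the 19064 probe sets annotated to 1 gene, and 19052 of these matched RefSeq's GRCh38.p14 gene table through their Entrez number, which also gave the order of neighbouring genes. The probe set with the highest 6-array mean stood for its gene. The test was limma's moderated fit (version 3.58.1, R 4.3.3, two-sided), run over all probe sets and again over all genes; a call needed a Benjamini-Hochberg adjusted p below 0.05. A difference is WZR6 minus parental on the log2 scale, with standard errors and 95% intervals of the moderated fit; the values of the 10 members come from the fit over probe sets and those of other genes from the fit over genes. The fits were tested on simulated data. Figures were drawn with matplotlib 3.10.9.

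Groups came from the sample titles. Nothing says that the 3 samples of a group were separate cultures, so p-values measure the spread between these samples, and 3 arrays per group limit the precision. All WZR6 samples came from a single clone, so the p-values hold no spread between clones. Traits of that clone and traits of resistance cannot be told apart. The members and the gene lists were chosen with earlier results of these data known. Named beside the members were, in each list, up to 4 called genes with the largest difference, and the 5 genes most like INHBA. Alternatives were median centring, cyclic loess, quantile normalization, a filter at the median level, a floor at the lower quartile, robust variance with an intensity trend, a block for the replicate number, averaging the probe sets of a gene, leaving out _x_at and _s_at probe sets, and leaving out each array.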

Additional observations from a re-analysis of the deposited data

How the results depend on the processing

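The fit over genes gave 144 values of the 10 members under the alternatives. Of these, 135 kept a call in the same direction or stayed without a call. The call was lost in 8, and lost with a change of sign in 1. Values called neither way were counted as kept whatever their sign. INHBA was called higher in all 15 alternatives, with differences from 1.83 (without _x_at and _s_at probe sets) to 4.37. Leaving out _x_at and _s_at probe sets had the largest effect. Fewer probe sets then remained, and for some genes another probe set stood for the gene. In that setting 2232 probe sets were called higher and 2013 lower, and 1795 genes higher and 1692 lower. Of the members 1 was called higher and 2 lower, and 10 pathway genes were called lower. FST, TGFB2 and TGFB1 were then measured on another probe set. FST differed by 0.018, on the dim probe set, TGFB2 by 0.12 and TGFB1 by -0.02, all without a call. FSTL3, ACVR2A and PMEPA1 had no probe set left. On the probe sets left, SMAD2 differed by -0.10, GDF11 by 0.10 and PCSK6 by -0.073, none of them called (adjusted p between 0.236 and 0.629 in limma). ITGB8 differed by -0.47 on its other, dimmer probe set (adjusted p = 0.0326 in limma). In the reported fit ITGB8 was not called (0.07), with both means below the lower quartile. Members that differed by over 2 times the median of their neighbours numbered 3 under that alternative and 4 with the filter at the median level, which left fewer members measured. As the mean of its probe sets TGFB1 differed by -0.18 and was not called. The deviations of same-numbered arrays of the 2 groups from their group means correlated at -0.01, 0.12 and 0.23. Pairs with different numbers correlated at -0.24 to 0.13. Whether arrays of the same number share a batch was not tested. With the replicate number as a block in the fit over genes, 3 members were called higher and 6 lower. Of the pathway genes 25 were then called higher and 23 lower. In the fit over probe sets TGFBR2 lost its call under the block (-0.16). Without each array in turn, 3 members were called higher and 5 to 6 lower in the fit over genes.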
